A study of Mus musculus with 8 samples.

Results

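The leukocyte CD surface antigens are membrane proteins that were numbered as targets of antibodies against white blood cells. They were taken from the gene names printed for the array: every gene whose symbol is Cd, a number, and at most 1 letter and 1 further digit was kept, apart from Cd74, Cd68, Cd36 and Cd5l. That gave 55 genes, of 8251 genes with a probe set of their own, measured by 72 probe sets. Liver RNA came from 8 female Ames dwarf mice, which are homozygous for the df allele (df/df) and make no growth hormone, prolactin or thyrotropin. The mice ate standard pellets ad libitum, were 24 to 26 months old at death, and each liver was hybridised to its own Affymetrix U74Av2 array, on which a gene is read by a set of short oligonucleotides. All 8 livers belong to 1 group, so the levels of the CD genes, their detection and their spread from liver to liver could be described, but no genotype or diet could be compared. The labels tell the livers apart by numbered titles only, so p-values measure the spread between these samples, and the spread between livers holds both biological and technical differences.

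T cells carry the antigen receptor with the Cd3 chains and the co-receptors Cd4 or Cd8, and B cells signal through Cd79a and Cd79b. Myeloid cells, among them the Kupffer cells that line the liver sinusoids, carry receptors for microbial products such as Cd14, and antigen-presenting cells of several kinds carry the co-stimulatory molecules Cd40, Cd80 and Cd86. Other CD molecules are not restricted to leukocytes: the tetraspanins Cd9, Cd63, Cd81, Cd82 and Cd151 and the complement inhibitors Cd55 and Cd59a are made by other tissues as well. The 55 genes were therefore read in groups: 16 of T and natural killer (NK) cells, 6 of B cells, 3 myeloid, 7 of antigen presentation, 5 shared by most leukocytes, 14 of broad expression and 3 vascular or stromal. Cd99l2, a relative of Cd99 whose symbol fits the pattern, was kept outside these groups.

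Signals are the deposited intensities, in arbitrary units. No detection calls were used here, so each signal was set against 19 negative control probe sets of the same array, 15 for the antisense strand of control transcripts and 4 for yeast genes. A gene counted as above the controls in a liver when its signal was higher than the 90th percentile of these controls. That threshold lay between 135 in liver 8 and 272 in liver 1, and the low threshold of liver 8 makes counts for that liver higher. The tissue label was checked with hepatocyte transcripts: 7 of 7 listed hepatocyte genes were above the controls in every liver, and Alb, the gene of serum albumin, had signals of 25309.5 to 37059. The summed signal of these 7 genes was lowest in liver 4, at 109008, and highest in liver 3, at 156897. Array medians ran from 155 in liver 3 to 180.2 in liver 8. Livers 8 and 4 had the highest medians, with 177.35 in liver 4, and liver 6 was next at 168.25. Scaling the arrays to a common median instead shifted them by between -0.10 and 0.11 on the log2 scale. The part of this difference in scale in the genes that were highest in livers 4 and 8 was not tested further. In whole liver, fewer cells of a type and less RNA per cell cannot be told apart.

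Most of the broadly expressed CD genes and all 3 myeloid ones were above the controls in every liver, and 0 of the T and B cell genes were. Of the 55 genes, 13 were above the controls in all 8 livers, 17 in some and 25 in none. Over all 8251 genes, 42.8% were above the controls in every liver and 34.4% in none. By group, above the controls in every liver were 8 of 14 broad genes, 3 of 3 myeloid genes, 1 of 7 of antigen presentation, and 0 of the 16 T and NK, 6 B, 5 pan-leukocyte and 3 vascular or stromal genes. Per liver, between 13 (liver 7) and 30 (liver 8) of the 55 genes were above the controls, and with 1 common threshold on all arrays, chosen after the data were seen, between 16 (liver 3) and 21 (liver 4). With a common threshold liver 8 held 20.

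**Figure D1:**
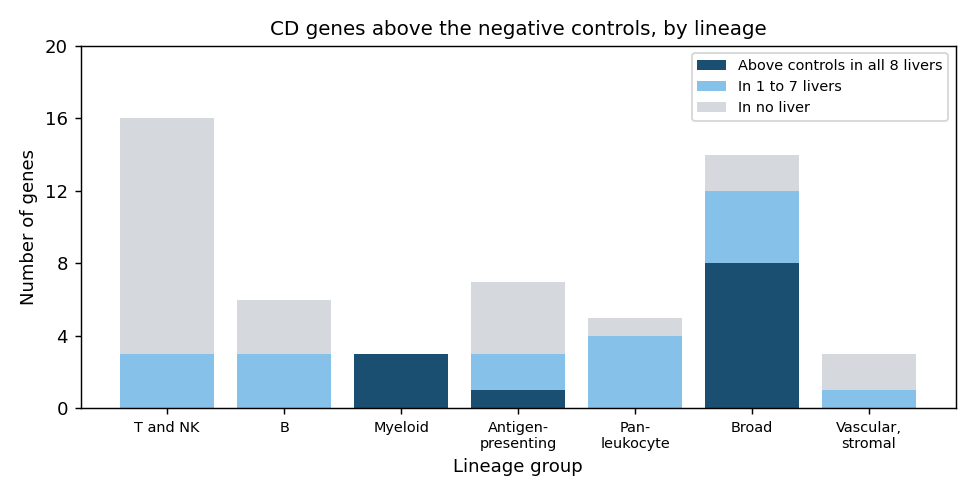
Number of CD genes (vertical axis) in each lineage group that were above the negative controls in all 8 livers, in 1 to 7 livers or in no liver. In the T and NK group 13 of 16 genes were above the controls in no liver, whereas all 3 myeloid genes were above them in all 8; Cd99l2 is not drawn.

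The T cell receptor chains lay below the controls in every liver. Cd3d, Cd3e, Cd3g and Cd247 are the signalling chains of that receptor. Cd3g had signals of 4.5 to 50.7 and a median of 16.4, Cd3d of 3.1 to 57.8 and a median of 27.65, and Cd247 of 10.4 to 63.4 and a median of 43.4. Such signals lie near the negative controls, whose medians were between 42.3 and 91.7 on the 8 arrays, and cannot be put in order. Cd3e had signals of 39.9 to 224, with a median of 57.6. Its signals of 224 in liver 4 and 119 in liver 8 were the highest, and both still lay below the thresholds of 233 and 135 on those arrays.

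The co-receptors and other T cell antigens gave a similar picture. Cd8a and Cd8b1, the chains of the cytotoxic co-receptor, had signals of 7.3 to 35.4 and of 7.5 to 14.0. Cd2 and Cd5, adhesion and regulatory receptors of T cells, stayed between 7.6 and 24.2 and between 14.1 and 26.7. Cd6, a receptor related to Cd5, had signals of 54.3 to 119, and Cd28, the main co-stimulatory receptor of T cells, of 41.3 to 103. Cd96, Cd160 and Cd244a, receptors of NK and T cells, did not exceed 29.0, 69.0 and 90.9. None of these 9 genes was above the controls in any liver. Cd4, the co-receptor of helper T cells, was brighter, with signals of 133 to 311 and a median of 226.5, and was above the controls in livers 2, 4, 6 and 8. Cd4 was highest in liver 2 and lowest in liver 5, so it did not share the livers in which Cd3e was highest. Cd7, a small immunoglobulin-like receptor of T and NK cells, was above the controls only in livers 4 and 8, at 268.5 and 258.5, against a highest signal of 184 in the other livers. Cd27, a co-stimulatory receptor of the tumour necrosis factor receptor family, had signals of 123 to 254 and was above the controls in livers 5 and 8. Its other probe set had signals of 22.3 to 162.5 and was above them in none.

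None of the 6 B cell antigens was above the controls in every liver. Cd79a, a signalling chain of the B cell receptor, had signals of 160 to 379 with a median of 256, and was above the controls in 6 of 8 livers. Its lowest signal was in liver 8 and its highest in liver 2. Cd79b, its partner chain, had signals of 85.8 to 181 and was above the controls in no liver; it too was lowest in liver 8. Cd22, an inhibitory receptor of B cells, was at 150 in liver 8 and 71.1 in liver 4, and at most 39.2 in the other livers. Cd72, another B cell receptor with inhibitory signalling, did not exceed 12.2. Cd180, a Toll-like receptor relative, did not exceed 74.5, and Cd70, the ligand of Cd27, reached 157 in liver 6 and 156 in liver 8, where it passed the lower threshold of liver 8 alone.

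All 3 myeloid genes were above the controls in every liver, and 2 of them were highest in livers 4 and 8. Cd14, the co-receptor for bacterial lipopolysaccharide, had signals from 317.5 to 866 with a median of 407 (486 ± 198, SD, n = 8). Liver 4 read 866 and liver 8 read 685, above all other livers, which lay between 317.5 and 524. Cd300c2, of the CD300 family of immunoglobulin-like receptors of myeloid cells, had signals from 280 to 746 with a median of 424 (481 ± 147, SD, n = 8). Livers 4 and 8 were again highest, at 746 and 617, and liver 1 followed at 545. Cd302, a C-type lectin described on macrophages and dendritic cells, did not follow them: it had signals from 2735 to 4295 with a median of 3509, highest in liver 1 and lowest in liver 5.

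The antigen-presentation group held 1 bright gene. Cd1d1, which presents lipids to natural killer T cells and is also made by hepatocytes, had signals from 3943 to 6957 with a median of 5332 (5431 ± 870.4, SD, n = 8). Livers 4 and 8 were highest, at 6957 and 5896.5, but liver 6 lay close at 5835. Its near-identical paralog Cd1d2 did not exceed 85.8, and the array cannot separate transcripts of such copies with certainty. Cd276, an inhibitory relative of the co-stimulatory ligands, had signals of 130 to 203.5 and was above the controls in no liver. The co-stimulatory molecules were near the controls: Cd40 had signals of 9.9 to 86.3 and Cd80 of 10.5 to 58.6. Cd86 had signals of 9.2 to 151.5 and Cd83, a marker of mature dendritic cells, of 28.6 to 161. Both passed the controls in liver 8 alone, the array with the lowest threshold, as did Cd22, Cd37 and Cd70. With liver 8 left out, 30 of the 55 genes instead of 25 were above the controls in no liver.

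In 4 of the 5 antigens shared by most leukocytes, livers 4 and 8 held the 2 highest signals, against 9.97% of all genes with no filter. One of the 4, Cd44, was below the controls in every liver, so the order of its signals is uncertain. Cd52, a short lipid-anchored glycopeptide of lymphocytes and monocytes, had signals from 231 to 1335.5 with a median of 375 (518 ± 388, SD, n = 8). Liver 4 read 1335.5 and liver 8 read 863, and the other 6 livers lay between 231 and 442. Cd53, a tetraspanin of leukocytes, had signals from 52.8 to 1077 with a median of 113. It was above the controls only in livers 4 and 8, at 1077 and 458, and no other liver exceeded 127. Cd48, a ligand of the signalling lymphocyte activation family, had signals from 50.7 to 311 with a median of 83.2. Here too only livers 4 and 8 passed the controls, at 311 and 269.6, and no other liver exceeded 95.6. Cd44, the hyaluronan receptor, was at 91.0 and 73.3 in livers 4 and 8 and at most 23.7 elsewhere, below the controls throughout. Cd37, a tetraspanin most abundant on B cells, was highest in liver 8 (236) and liver 5 (213), followed by liver 6 (199) and liver 4 (182). Folds of Cd53, Cd48 and Cd44 between livers are not given, because the lower signals could not be told from the controls.

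**Figure D2:**
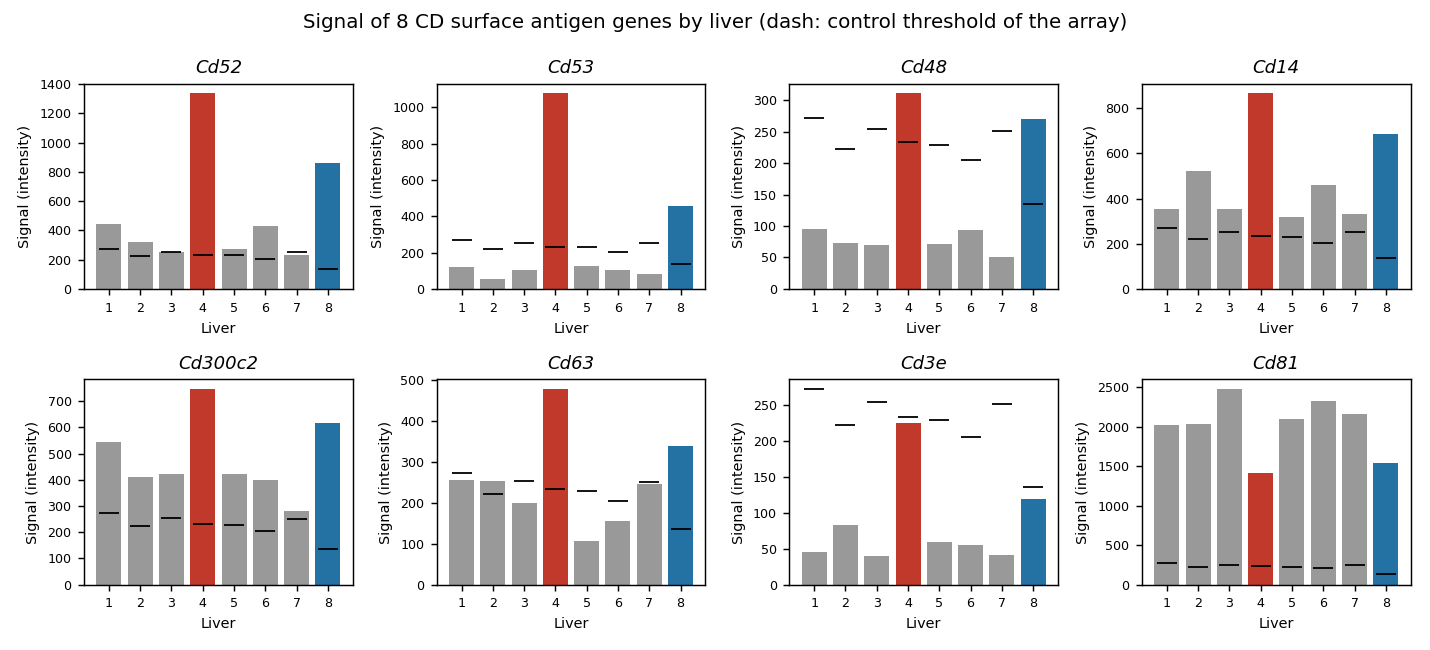
Signal (intensity) of 8 CD genes in livers 1 to 8, with liver 4 in red, liver 8 in blue and a dash at the control threshold of each array. Cd52, Cd53, Cd48, Cd14, Cd300c2, Cd63 and Cd3e were highest in livers 4 and 8, with Cd3e below the thresholds, and Cd81 was lowest in these livers, at 1408 and 1535.

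The promoters of Cd53, Cd300c2 and Cd48 are shown as examples from the 17 of 55 CD genes with livers 4 and 8 as the highest pair. They were picked from that set, so they do not show how often a motif occurs in it. The windows are those of RefSeq on GRCm38.p6 and hold 250 bases before and 50 after the gene's start. In each line the capitals mark the motif AGGAAGT or its reverse complement, a core that binds PU.1, a transcription factor of myeloid and B cells.
Cd53 (chr3:106790100-106790399, minus strand): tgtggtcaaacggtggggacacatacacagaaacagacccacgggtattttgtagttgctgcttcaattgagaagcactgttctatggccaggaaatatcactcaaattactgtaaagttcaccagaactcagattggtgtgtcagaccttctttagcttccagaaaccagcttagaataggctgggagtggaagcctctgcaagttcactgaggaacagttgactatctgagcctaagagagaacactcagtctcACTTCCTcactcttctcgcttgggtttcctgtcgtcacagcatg
Cd300c2 (chr11:115001831-115002130, minus strand): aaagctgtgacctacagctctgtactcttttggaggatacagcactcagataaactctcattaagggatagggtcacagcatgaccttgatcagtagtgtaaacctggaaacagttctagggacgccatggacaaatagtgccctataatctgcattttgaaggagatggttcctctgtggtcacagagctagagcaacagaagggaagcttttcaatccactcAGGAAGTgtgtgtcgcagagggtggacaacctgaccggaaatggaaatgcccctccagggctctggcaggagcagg
Cd48 (chr1:171681742-171682041, plus strand): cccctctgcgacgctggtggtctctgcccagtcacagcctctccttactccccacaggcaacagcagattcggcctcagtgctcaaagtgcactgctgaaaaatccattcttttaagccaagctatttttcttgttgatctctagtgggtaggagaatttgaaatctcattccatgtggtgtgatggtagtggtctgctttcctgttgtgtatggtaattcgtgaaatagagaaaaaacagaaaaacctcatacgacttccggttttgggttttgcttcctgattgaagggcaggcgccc

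In these letters, Cd300c2 has the motif at position 225 of its window on the strand of the gene, Cd53 has it at position 257 on the other strand, and the Cd48 window has none. Windows were given for 37 of the 55 genes, 45 windows in all. Searched on both strands, AGGAAGT was in 10 of these 45 windows (22.2%), against 9.35% of all 32851 windows. The 10 genes were Cd247, Cd300c2, Cd37, Cd3d, Cd3e, Cd5, Cd53, Cd72, Cd79a and Cd82, so the motif was in windows of T cell genes with signals below the controls as well as in those of Cd53 and Cd300c2. The motif GAAANNGAA, found in interferon-response elements, was in 5 of the 45 windows (11.1%, against 8.56% of all), among them that of Cd300c2. TTCNNNGAA, the STAT element, was in 4 (8.89%, against 8.3%) and TATAAA in 3 (6.67%, against 13.6%). Matches to these motifs can share bases, although AGGAAGT and GAAANNGAA do not in the Cd300c2 window. A match is a description of the letters only.

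Of the 14 broadly expressed CD genes, 8 were above the controls in every liver. Cd164, a sialomucin, had signals from 4343 to 7545 with a median of 6713, and Cd59a, which blocks the membrane attack complex of complement, from 2729 to 4219 with a median of 3191. Cd81, a tetraspanin that is part of the B cell co-receptor and is made by hepatocytes, had signals from 1408 to 2474 with a median of 2063. It was lowest in livers 4 and 8, at 1408 and 1535, and all other livers read 2022 or more. Cd47, the signal that restrains phagocytosis, ranged from 1318.5 to 2142, Cd99, an adhesion molecule, from 1009.5 to 1634.5 and Cd82 from 1366 to 1914. Cd151 ranged from 960.4 to 1242, Cd9 from 355 to 669.7 and Cd99l2 from 293 to 398. The highest liver differed between these genes. Cd164, Cd47 and Cd9 were highest in liver 4, and Cd59a and Cd81 in liver 3. Cd151 was highest in liver 2, Cd99l2 in liver 6, Cd82 in liver 7 and Cd99 in liver 8.

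Among the dimmer broad genes, Cd63 and Cd24a were highest in livers 4 and 8. Cd63, a tetraspanin of lysosomes and late endosomes, had signals from 107 to 478 with a median of 249. Livers 4 and 8 read 478 and 338, and the next, liver 1, read 256. Cd24a, a mucin-like anchor protein of immature blood cells and epithelia, had signals from 98.6 to 295 with a median of 231, and livers 4 and 8, at 295 and 269, barely exceeded liver 1 at 258. Cd59b, a paralog of Cd59a, was lowest in liver 4 (118) and highest in liver 2 (337). Cd320, the receptor for transcobalamin-bound vitamin B12, was likewise lowest in liver 4 (178) and highest in liver 2 (330). Cd55 had signals of 52.9 to 93.7 and Cd46, another complement regulator, of 1.7 to 14.0, both below the controls in all livers. The broad group was set by a list, and these signals do not show either gene to be expressed in liver. The vascular and stromal antigens Cd34 and Cd200 did not exceed 76.4 and 70.6 and were below the controls too. Cd93, an endothelial and myeloid receptor, passed them in livers 4 and 8, at 385 and 188. Cd59a and Cd59b are close paralogs, so their probe sets may share transcripts.

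**Figure D3:**
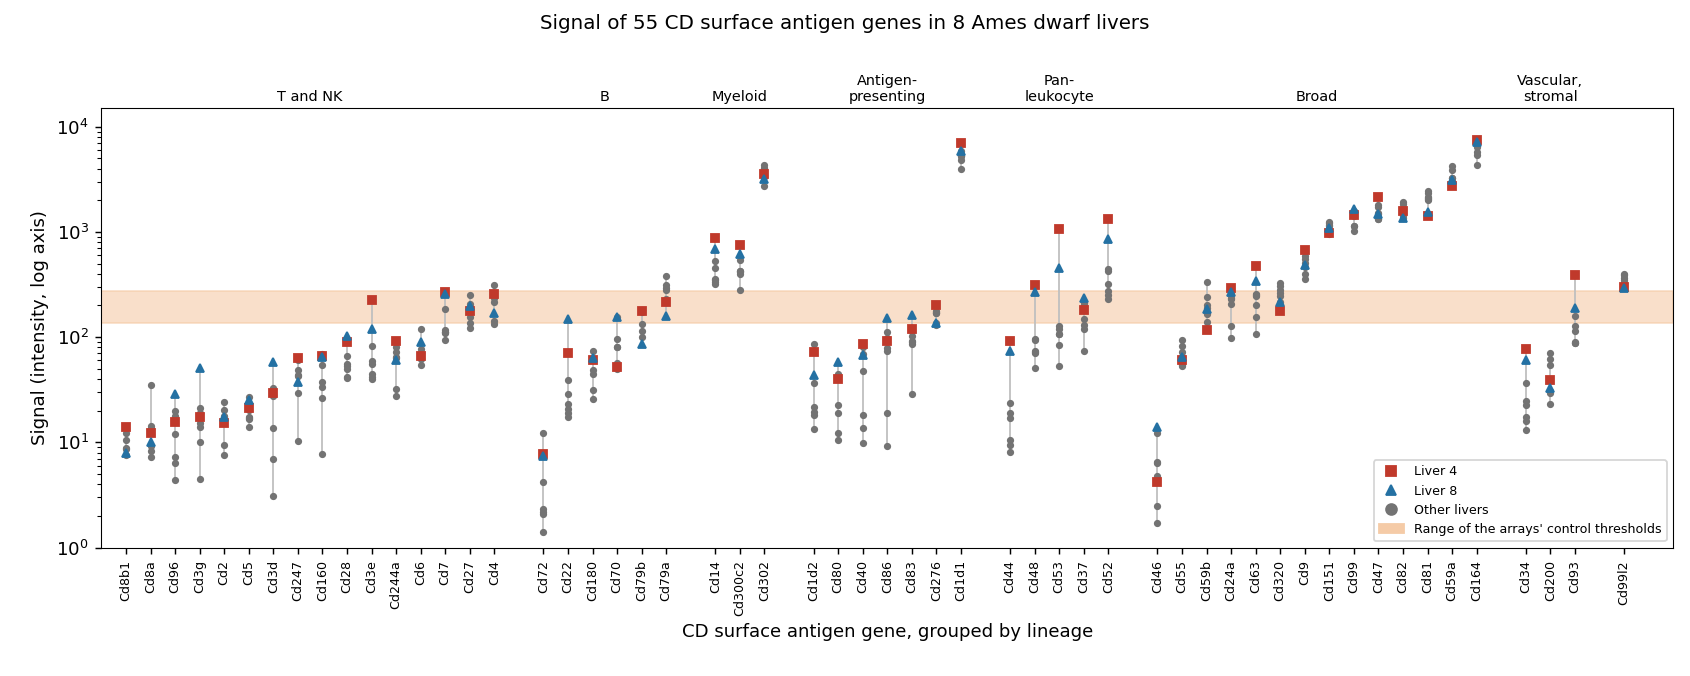
Signal (log axis) of the 55 CD genes, grouped by lineage, with 1 symbol per liver and a grey line from the lowest to the highest liver. The shaded band spans the control thresholds of the 8 arrays, 135 to 272; most T and NK cell genes lie below it, and liver 4 (red squares) and liver 8 (blue triangles) stand above the other livers for Cd52, Cd53 and Cd48.

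Spread between livers was tested for genes whose mean log2 signal was above the median of all probe sets, a geometric mean signal of 162. Of the 55 CD genes 21 passed this filter and 34 did not, and a gene that is bright in few livers only can fail it. The nearest below it were Cd276 (160), Cd53 (157) and Cd37 (154), and the nearest above it Cd27 (176), Cd59b (188) and Cd24a (203). Each variance was set against the typical variance of genes of like signal, with a chi-square test and Benjamini-Hochberg adjustment over all 6211 tested probe sets. A call at an adjusted p below 0.05 means that a gene varied more than most genes of its brightness, for whatever reason. Of the 4819 tested genes 11.5% were called.

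Of the 21 tested CD genes 5 were called (23.8%, against 11.5% of all tested genes): Cd52, Cd14, Cd63, Cd300c2 and Cd24a. Cd52 varied most, with an SD of 0.90 on the log2 scale (adjusted p = 8.18e-16). Cd14 followed by its p-value, with an SD of 0.53 and a 2.73-fold range (adjusted p = 0.000269), and Cd63 had an SD of 0.66 (adjusted p = 0.000617). Cd300c2 had an SD of 0.44 and a 2.67-fold range (adjusted p = 0.0172), and Cd24a an SD of 0.56 (adjusted p = 0.0419). Some lower signals of Cd52, Cd63 and Cd24a were below the controls, so folds between livers are not given for them and their SDs are uncertain. All 5 were highest in livers 4 and 8, and without these livers 0 of 21 were called, against 8.55% of all tested genes. The SD without these livers was 0.39 for Cd52, 0.29 for Cd14 and 0.31 for Cd300c2, but 0.50 for Cd63 and 0.56 for Cd24a, whose spread did not fall. Without liver 4 alone Cd52, Cd14 and Cd63 were called (3 of 21, 14.3%, against 9.57% of all tested genes). Cd300c2 was not called without liver 4 (adjusted p = 0.143) or without liver 7 (adjusted p = 0.323). Cd24a was not called without any one of livers 1, 2, 3, 4, 7 and 8, although its SD was 0.40 without liver 3, where its signal was lowest, and between 0.53 and 0.60 without each of the others. With arrays scaled to a common median 3 of the 21 were called, against 9.65% of all, and Cd300c2 (adjusted p = 0.111) and Cd24a were not. The stricter limma test, which asks whether a variance exceeds the spread of variances among genes, called 0 of the 21 CD genes and 0% of all tested genes. At an unadjusted limma p below 0.05 were 3 CD genes, Cd52, Cd14 and Cd63, and 425 of all 6211 tested probe sets. The median SD of the 21 genes was 0.29 and their median range 1.85-fold, against 0.23 and 1.61-fold for all tested genes.

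By group, the calls fell on 2 of 3 tested myeloid genes, 1 of 1 pan-leukocyte gene and 2 of 12 broad genes, against 11.5% of all tested genes. They fell on 0 of 2 T and NK genes (Cd4 and Cd27), 0 of 1 B cell gene (Cd79a) and 0 of 1 antigen-presentation gene (Cd1d1). These groups are too small for their shares to be compared. Cd4 had an SD of 0.44 (adjusted p = 0.336), Cd79a of 0.39 (adjusted p = 0.393) and Cd59b of 0.46 (adjusted p = 0.338), and none of these passed the test. The least variable tested CD genes were Cd151 (SD 0.15), Cd99l2 (0.17), Cd82 (0.19), Cd59a (0.21), Cd302 (0.21) and Cd1d1 (0.24). With a lower filter, at the 25th percentile of mean signals, 41 CD genes were tested and 10 were called (24.4%, against 11.6% of all genes so tested). The genes gained were Cd53 (SD 1.43, adjusted p = 1.86e-16), Cd86 (SD 1.33, adjusted p = 0.000348), Cd48 (SD 0.95, adjusted p = 0.00425), Cd40 (SD 1.23, adjusted p = 0.0276) and Cd93 (SD 0.73, adjusted p = 0.0299). Signals of Cd86 and Cd40 were below the controls in 7 and 8 of the 8 livers. Those of Cd53, Cd48 and Cd93 were above them in livers 4 and 8 alone, so the SDs of all these gained genes are uncertain. Cd3e (SD 0.87, adjusted p = 0.152) and Cd7 (SD 0.60, adjusted p = 0.152) were not called.

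**Figure D4:**
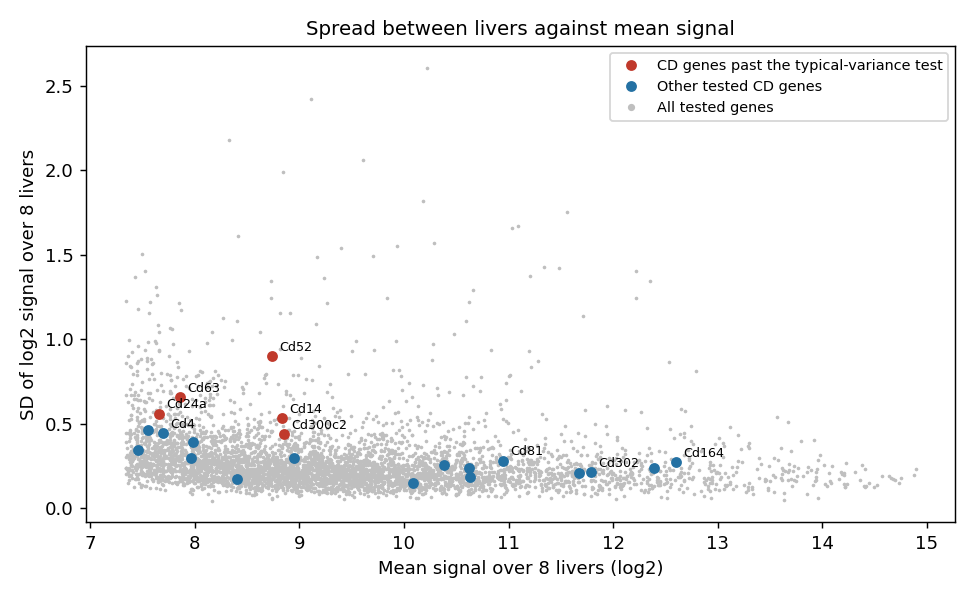
SD of the log2 signal over 8 livers (vertical axis) against mean log2 signal (horizontal axis) for 21 tested CD genes, red where called and blue where not, over all 4819 tested genes in grey. Cd52, with an SD of 0.90, is the highest of the CD genes, followed by Cd63 at 0.66.

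The liver that was highest was read for each tested CD gene. Of the 21 genes, 9 were highest in liver 4 (42.9%, against 17.7% of all tested genes), 5 in liver 2, 2 in liver 3 and 1 in each of the other livers. In 7 of the 21, livers 4 and 8 held the 2 highest signals (33.3%, against 9.73% of all tested genes): Cd52, Cd14, Cd300c2, Cd63, Cd24a, Cd1d1 and Cd164. With the arrays scaled to a common median this was so for 4 of the 21, against 5.73% of all. Lowest in liver 4 were 4 of the 21, Cd81, Cd59a, Cd59b and Cd320, a share close to the 22.4% of all tested genes. Liver 5 was lowest for 7 of the 21, against 16% of all tested genes.

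Leukocyte genes outside the CD nomenclature were read beside these results. Of 13 tested macrophage and other myeloid genes 12 were called, against 11.5% of all tested genes, and in these 12 livers 4 and 8 were the highest pair, against 9.73%. The exception was Clec4f, a lectin of Kupffer cells, which was highest in liver 4, at 1817, and had 1356 in liver 8, below livers 5 and 6 (SD 0.28, adjusted p = 0.476). Among the 12 called, Cybb, Fcgr1 and Ly86 passed the filter, a geometric mean signal of 162, only through livers 4 and 8. Cybb was above the controls in livers 4 and 8 alone, and Fcgr1 and Ly86 in livers 4, 6 and 8. For these genes the filter itself therefore favoured a call with livers 4 and 8 highest. The summed signal of the 20 myeloid genes on the array was between 6156 in liver 7 and 30131 in liver 4. Another list held 15 pan-leukocyte genes, among them Ptprc, the gene of Cd45 under its own symbol. Livers 4 and 8 were the highest pair in 13 of these 15, against 9.97% of all genes with no filter. Of 10 tested 4 were called, against 11.5% of all tested genes. Ptprc had a signal of 436 in liver 4 and 221 in liver 8, and at most 152 in the other livers. The 10 T cell genes summed to between 1163 in liver 3 and 1746 in liver 8, and 0 of 3 tested were called. The 12 B cell genes summed to between 1960.1 in liver 7 and 2369 in liver 2, with 0 of 5 tested called. Above the controls in every liver were 2 of the 10 T cell genes, Lat and Ptprcap, against 42.8% of all genes. So were 3 of the 12 B cell genes, Ighm, Ms4a1 and Spib. The part of these myeloid, pan-leukocyte, T and B cell genes in the results on CD genes was not tested.

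None of the 8 genes of cytotoxic and NK cells passed the filter for the test. In 5 of 8, against 9.97% of all genes with no filter, livers 4 and 8 were the highest pair, but 3 of these 5, Gzma, Klrd1 and Klrk1, were above the controls in no liver. The sum over the 8 genes was between 246 in liver 7 and 2185.5 in liver 4. In livers 4 and 8 most of the sum was Ccl5, a chemokine that macrophages and other cells make as well, at 1420 in liver 4 and 650.5 in liver 8. Gzmb, a granule protease, was above the controls in livers 4 and 8 alone, at 292 and 229, Ccl5 in livers 1, 4 and 8, and the other 6 genes in none. Of 8 neutrophil genes, livers 4 and 8 were the highest pair in 3, S100a8, S100a9 and Ngp, of which Ngp was above the controls in no liver. S100a8 was at 369 and 247 in these livers and at most 120 in the rest, and S100a9 at 231 and 212 and at most 89.2. Of 3 tested neutrophil genes 1 was called, Csf3r (adjusted p = 0.0328), which was lowest in liver 4, at 553, and Elane and Camp were not highest in liver 4 either. Of 6 hepatic stellate and fibroblast genes 5 were tested and 2 were called, Col1a1 and Col3a1, chains of fibrillar collagen, and both had livers 4 and 8 as the highest pair. Col1a1 was at 806 in liver 4 and 564 in liver 8, and between 152.5 and 537 in the other livers (SD 0.77 on the log2 scale, adjusted p = 1.69e-10). Col3a1 was at 454 in liver 4 and 273 in liver 8, and between 106 and 251 in the other livers (SD 0.70, adjusted p = 0.000853). The other tested genes of this list were not called and went otherwise. Col1a2 and Des were lowest in liver 4, at 1312.5 and 139, and Dcn was highest in liver 3. Acta2, which was not tested, was highest in liver 4 but below the controls there. The part of the stellate, neutrophil and cytotoxic lists in the results on CD genes was not tested. Of 5 tested endothelial genes 0 were called, and the megakaryocyte genes Gp9 and Pf4 did not exceed 106 and 84.9 in any liver. The spike-in controls were at 10.70 to 10.88 on arrays 1 to 4 and 10.18 to 10.46 on arrays 5 to 8 on the log2 scale, although the labels name no batch. With signals centred within each of these sets of arrays 4 of the 21 CD genes were called (19%, against 10.2% of all tested genes), Cd24a being lost (adjusted p = 0.075).

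Where a CD gene had several probe sets in the test, their agreement over the 8 livers was limited. Both Cd47 probe sets were highest in liver 4, at 2142 and 1440, with r = 0.695 (exact permutation p = 0.056, adjusted over 5 pairs p = 0.140) and rho = 0.548 (exact permutation p = 0.171, adjusted p = 0.427), and r = 0.686 once the 2 farthest livers were left out. The brighter pair of Cd151 probe sets had r = 0.648 (exact permutation p = 0.0561, adjusted p = 0.140), rho = 0.595 (exact permutation p = 0.132, adjusted p = 0.427) and r = 0.383 without the 2 farthest livers. A further Cd151 probe set had r = 0.0137 and 0.148 with these (exact permutation p = 0.973 and 0.723, adjusted p = 0.973 and 0.904), with rho of 0.00 and 0.452 (exact permutation p = 1 and 0.267), and r = 0.388 and 0.550 without the 2 farthest livers. The pair of Cd82 probe sets had r = 0.225 (exact permutation p = 0.587, adjusted p = 0.904), rho = 0.0952 (exact permutation p = 0.840) and r = 0.808 without the 2 farthest livers. All tests were two-sided. The probe sets of these pairs differed between livers by 1.20-fold to 2.02-fold. In 13 of the 55 genes there was more than 1 probe set, and some read far below the others: 1 for Cd151 did not exceed 9.3 and 1 for Cd82 did not exceed 12.1.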

How the data were processed

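The values are intensities of 8 1-colour Affymetrix U74Av2 arrays, deposited by the authors as 1 linear value per probe set and array after scanning with a GeneArray instrument, per the labels. The scaling behind them was not stated in those labels, and the software is not given in the sources used here. Means trimmed by 2% at each end differed by 0.00895% between arrays, so the deposited scale was kept. Of 12488 probe sets, 66 are controls and 10833 carry 1 gene symbol in the platform annotation. All 72 probe sets of the CD genes matched RefSeq genes of GRCm38.p6 by Entrez identifier. A gene was represented by its probe set with the highest mean log2 signal. Intensities under the 10th percentile, 11.2, were set to it before log2 transformation, and variances were tested with a chi-square test against a loess curve (span 0.3) and with limma 3.58.1 in R 4.3.3, both one-sided with 7 degrees of freedom and adjusted over 6211 probe sets. Both tests were checked on simulated data in which most genes had the same spread. Measured genes differ in spread, so that check does not show how the tests behave on these data. Python 3.11.15 was used for the rest. Permutation tests used all 40320 pairings. The number of arrays limits the precision.

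Genes named one by one were the 12 most and 6 least variable tested CD genes, 27 lineage-defining genes (24 were in the table; the others were not analysed here), and genes whose probe sets correlated below 0.5; others were named to account for all members. The members, lists and tests were chosen with earlier results of these data known. Protein features planned for these genes were not analysed here.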

Additional observations from a re-analysis of the deposited data

Results flagged for a closer look

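Of the 38 CD genes named by rule, 5 had 1 liver whose gap to its nearest neighbour, relative to the range of log2 signals over all 8 livers, exceeded the critical value of Dixon's test. Chance gives about 1 such gene in 20 where values are measured, but that rate does not apply to signals set to the floor or lying below the controls, as most of these are. Cd3g was highest in liver 8, at 50.7 against a next signal of 21 (gap 0.584). Cd8a was highest in liver 2, at 35.4 against 14.3 (gap 0.788). Cd247 was lowest in liver 5, at 10.4 against 29.6 (gap 0.561). Cd72 exceeded the floor of 11.2 in liver 6 alone, at 12.2, so its gap of 1.0 follows from the floor alone. Cd83 was lowest in liver 2, at 28.6 against 86.8 (gap 0.643). None of these genes passed the filter for testing. Cd83 passed the negative controls in 1 liver and the other 4 in none. Cd52 and Cd53 did not exceed the critical value, with liver 8 between liver 4 and the rest.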

How the results depend on the processing

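The count of 5 variable CD genes of 21 stayed within 1.5 times of that value with quantile normalization, other floors, log2(signal + 16), a wider loess span, probe sets with shared sequences left out and centring within arrays 1 to 4 and 5 to 8. It was 3 of 21 with arrays scaled to a common median (against 9.65% of all tested genes) and 10 of 41 with the filter at the 25th percentile (against 11.6%). Without livers 4 and 8 together it was 0 of 21 (against 8.55%). With 1 liver left out it was between 3 of 21 (without liver 4, against 9.57%) and 6 of 22 (without liver 6, against 10.4%). Cd53, above the controls in livers 4 and 8 alone, passed the filter and was called without liver 1, 2, 3, 6 or 7. Cd24a was not called without liver 1, 2, 3 or 7, nor Cd300c2 without liver 7. Similar counts there therefore do not mean the same genes. With no filter 7 of 55 were called (12.7%, against 8.92% of all genes). The limma count of CD genes was 0 in every setting run. The cause of these shifts was not tested, other than that a lower filter tests more genes. Cd52, Cd14 and Cd63 kept their calls in every setting but the removal of livers 4 and 8 together. Cd300c2 lost its call in 4 settings (a common median, without livers 4 and 8 together, without liver 4 and without liver 7), and Cd24a in 12. CD genes highest in liver 4 were 18 of 41 with the lower filter (43.9%, against 18.7% of all) and 21 of 55 with none (38.2%, against 18%). CD genes with livers 4 and 8 as the highest pair were 4 of 21 with a common median, 14 of 41 with the lower filter (34.1%, against 10.7% of all) and 17 of 55 with none (30.9%, against 9.97%), so these shares moved little with the filter. With the median of the controls as the threshold, 24 CD genes were above it in all livers and 8 in none. With the highest control as the threshold these counts were 9 and 31, with the median of all probe sets 15 and 26, and with the common threshold, chosen after the data were seen, 14 and 29. Leaving out 1 liver gave 13 in every case for the first count and 25 to 30 for the second. Scaling to a common median brought the adjusted p of the brighter Cd151 pair below the threshold. No paired analysis was possible because all livers belong to 1 group. Signals near the controls limit what can be said of T and B cell genes.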
